A study of Mus musculus with 18 samples.

Results

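The muscle acetylcholine receptor and the proteins that gather it at the neuromuscular synapse are described here over 10 genes, the receptor subunits Chrna1, Chrnb1, Chrnd, Chrng and Chrne, the ligand Agrn, its receptor Lrp4, the kinase Musk, the adaptor Dok7 and the scaffold Rapsn. They were listed by symbol with earlier results of these data known, so shares of all genes beside their counts are descriptions only. Each had exactly 1 row of the array table annotated to it alone. All 10 were found among 19938 genes with a single-symbol row. The transcripts of C2C12 cells were hybridised to 18 Affymetrix mouse gene arrays. C2C12 is a mouse myoblast line that fuses into myotubes when serum is lowered. In every cell population endogenous TAF3, a TFIID subunit, had been depleted by shRNA and replaced by an introduced murine TAF3. KK-TAF3 sh-PIP4K2B cells carried the KK mutant, which no longer binds phosphoinositides, and were depleted of the lipid kinase PIP4K2B. WT-TAF3 sh-PIP4K2B cells carried wild-type TAF3 and were depleted of PIP4K2B too, and WT-TAF3 shX cells carried wild-type TAF3 without this depletion. The name shX comes from the study's schemes, since the labels name no control shRNA. Each genotype was treated with etoposide, a topoisomerase II poison that breaks DNA, at 10 µM for 7 hours, or was differentiated for 2 days in medium with 2% horse serum. The series design text gives 3 days. There were 3 arrays in each of the 6 groups. No untreated, proliferating cells were analysed here, so an effect of etoposide and an effect of differentiation cannot be told apart. Each genotype is a single engineered population, so genotype and population cannot be told apart either. The arrays hold muscle cells without a nerve, and the deposited values are log2 signals after RMA, a method that corrects background, sets all arrays to a shared distribution and summarises the probes of a gene. Fewer cells of a type and less RNA per cell cannot be told apart in such bulk samples.

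At the adult neuromuscular synapse acetylcholine from the nerve opens a channel of alpha, beta, delta and epsilon subunits, encoded by Chrna1, Chrnb1, Chrnd and Chrne. Embryonic and denervated muscle uses the gamma subunit of Chrng in place of epsilon. The nerve releases agrin (Agrn), which binds LRP4 and so activates MuSK. DOK7 is the cytoplasmic activator of MuSK, and rapsyn (Rapsn) holds the receptors in clusters under the nerve terminal. Receptor subunit genes are turned on as myoblasts differentiate, through E-boxes (CANNTG) bound by MyoD, myogenin and related factors. N-boxes (CCGGAA), bound by ETS factors, are known for directing transcription to the nuclei beneath the synapse.

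Promoters are shown because E-boxes are known to control subunit genes, and Chrna1, Chrnb1, Chrnd and Chrng were all higher at the adjusted p with PIP4K2B depletion in differentiated cells. RefSeq start sites on GRCm38.p6 gave a window of 250 bases before to 50 bases after the start for 7 of the 10 genes. Chrnd, Rapsn and Lrp4 had no window, so their promoters were not examined. Dok7 and Agrn had 2 starts each. The stretches holding every match in the windows of Chrna1, Chrnb1, Chrng, Chrne and Musk follow, read 5′ to 3′ along the gene. Capitals mark each E-box CANNTG and, in Chrne, the N-box CCGGAA.
Chrna1, chr2:73580369-73580438, minus strand: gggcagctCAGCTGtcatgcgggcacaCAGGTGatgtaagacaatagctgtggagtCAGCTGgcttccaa
Chrnb1, chr11:69795953-69796064, minus strand: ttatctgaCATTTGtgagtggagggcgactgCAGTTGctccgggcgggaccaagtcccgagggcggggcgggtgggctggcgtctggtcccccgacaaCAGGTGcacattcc
Chrng, chr1:87205648-87205749, plus strand: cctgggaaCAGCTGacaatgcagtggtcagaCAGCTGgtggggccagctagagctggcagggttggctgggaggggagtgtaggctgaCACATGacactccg
Chrne, chr11:70619257-70619340, minus strand: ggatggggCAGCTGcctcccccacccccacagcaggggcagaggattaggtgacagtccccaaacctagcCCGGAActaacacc
Musk, chr4:58285777-58285907, plus strand: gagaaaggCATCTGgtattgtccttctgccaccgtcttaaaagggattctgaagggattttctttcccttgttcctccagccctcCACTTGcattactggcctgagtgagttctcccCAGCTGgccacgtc

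Chrna1, Chrnb1, Chrng and Musk each held 3 E-boxes within 250 bases of the start, a number reached by 17.6% of all 32851 promoter windows. CAGCTG, the E-box letters with GC at the centre, stood 2 times in Chrna1 and 2 times in Chrng, which 1.90% of windows match or exceed. It stood 1 time in Musk and 1 time in Chrne, as in 16.3% of windows with at least 1 match, and was not found in the Chrnb1 window. Chrne was the only gene among the 7 with an N-box, searched on both strands and found in 14.9% of windows. Dok7 and Agrn had 1 E-box in the window of the one start and none in that of the other. CAGCTG is itself a CANNTG match, so these counts overlap. A match is a description of letters and not a measured binding site, and binding was not assayed in these files. Chrnd and Chrng are adjacent coding genes on mouse chromosome 1.

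**Figure D1:**
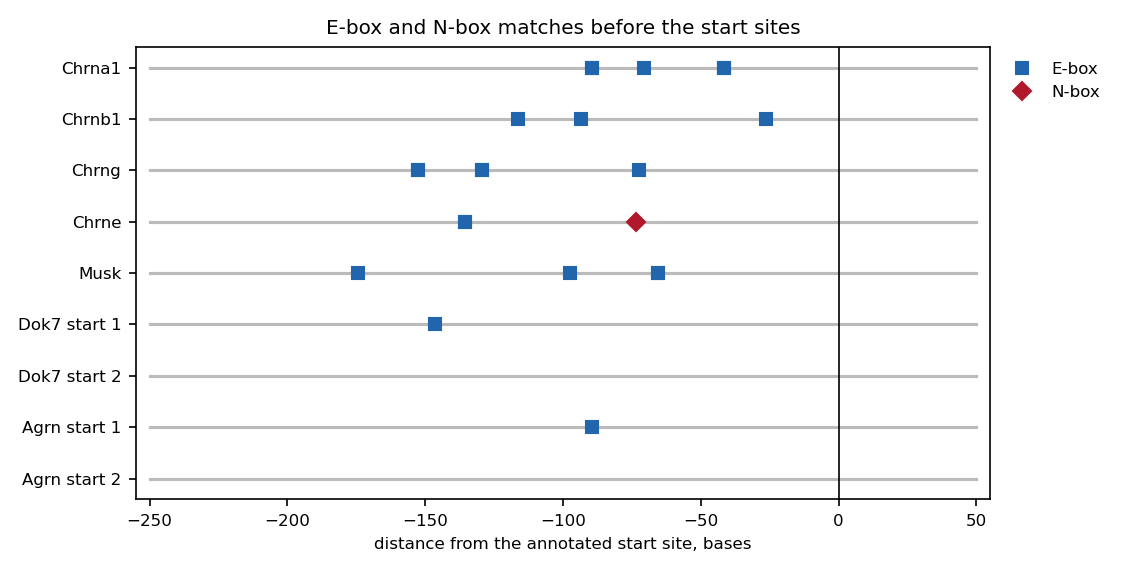
Positions of E-box (blue squares) and N-box (red diamond) matches, in bases from each annotated RefSeq start site, for the 7 genes with a promoter window (grey line). Chrna1, Chrnb1, Chrng and Musk each hold 3 E-boxes before the start, and the N-box lies in Chrne.

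Pip4k2b served as a check of the labels, and all sh-PIP4K2B arrays lay below the shX arrays of their treatment. Its log2 level averaged 9.86 ± 0.04 in KK-TAF3 sh-PIP4K2B, 9.55 ± 0.09 in WT-TAF3 sh-PIP4K2B and 10.69 ± 0.005 in WT-TAF3 shX cells after differentiation (SD, n = 3 each). The 2 depleted genotypes did not overlap after differentiation, with more Pip4k2b signal in KK-TAF3 than in WT-TAF3 sh-PIP4K2B cells. No KK-TAF3 cells without sh-PIP4K2B were on the arrays, so the loss in KK-TAF3 cells cannot be measured. Array medians lay between 7.25 and 7.46 and arrays of a group correlated at r of 0.994 to 0.999. Over all genes the median within-group SD was 0.0952 to 0.137 after etoposide and 0.0694 to 0.0730 after differentiation, so the etoposide groups were less tight. Within each of the 3 etoposide groups the array numbered 3 was the lowest for Lrp4, Agrn and Musk. The summed signal of 6 myotube markers (Myh3, Acta1, Ckm, Tnnt3, Mylpf and Mymk) on the log2 scale ran from 11.55 to 11.67 in KK-TAF3, 12.41 to 12.54 in WT-TAF3 sh-PIP4K2B and 11.87 to 11.98 in WT-TAF3 shX cells after differentiation. After etoposide it ran from 10.99 to 11.12, from 11.22 to 11.38 and from 11.26 to 11.35 in the same genotypes. Among 6 reserve cell markers Cd34 was lower past the threshold in each genotype comparison except KK-TAF3 against WT-TAF3 after etoposide. Of 4 measured cycling markers, none passed between genotypes after differentiation, while after etoposide 1 was higher with PIP4K2B depletion and 3 were higher in KK-TAF3 sh-PIP4K2B than in shX cells. No gene of the motor neuron list (6 of 6 measured) or the Schwann cell list (3 of 5) passed the threshold between genotypes in either treatment.

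Differences were tested with limma in 1 model of the 6 group means. The threshold required a difference above 1.4-fold and an adjusted p under 0.05, with the Benjamini-Hochberg adjustment made over all 19938 genes. Differences below are on the log2 scale with their standard error (SE), and every adjusted p is from this fit. The study describes biological triplicates, and the labels do not say how the cultures were kept apart, so the p-values measure the spread between these arrays.

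PIP4K2B depletion in differentiated WT-TAF3 cells was accompanied by higher signals of the receptor subunits of the embryonic channel. Chrnd and Chrng passed the threshold, Chrna1 and Chrnb1 passed the adjusted p but not the fold limit, and no gene of the 10 fell past either. These 2 of 10 stand against 1.06% of all genes past the threshold in this comparison (0.682% higher), and the 4 of 10 at the adjusted p alone against 6.14% (3.21% higher). The median difference of the 10 was 0.29, against -0.0241 over all genes.

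Chrnd, the delta subunit present in both forms of the channel, had log2 levels of 9.73, 9.80 and 9.79 in WT-TAF3 sh-PIP4K2B cells, against 9.04, 8.82 and 8.92 in WT-TAF3 shX cells. The groups lay well apart, with a difference of 0.84 (SE 0.08, adjusted p = 7.97e-06), or 1.80-fold. This was the widest gap among the 10 genes after differentiation. Chrng, the gamma subunit of the embryonic receptor, stood at 9.03, 9.14 and 9.01 with sh-PIP4K2B, against 8.54, 8.48 and 8.53 with shX. The arrays did not overlap and the difference was 0.54 (SE 0.09, adjusted p = 0.00134), or 1.46-fold. Its call was lost with quantile normalization within each treatment (0.47, adjusted p = 0.00193) and with the array median as a covariate (0.48, adjusted p = 0.0235).

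Chrnb1, the beta subunit, read 10.43, 10.49 and 10.44 in WT-TAF3 sh-PIP4K2B cells, against 10.04, 10.02 and 10.03 in WT-TAF3 shX cells. Its difference of 0.42 (SE 0.06, adjusted p = 5.01e-04) was 1.34-fold and below the fold limit, and the arrays of the groups were far apart for their spread. Chrna1, the alpha subunit, which binds acetylcholine, read 12.43, 12.45 and 12.48 with sh-PIP4K2B, against 12.15, 12.06 and 12.16 with shX, a difference of 0.33 (SE 0.06, adjusted p = 0.00354). Chrne, the adult epsilon subunit, ran the other way in its arrays, at 7.24, 7.19 and 7.09 with sh-PIP4K2B and 7.39, 7.54 and 7.36 with shX. Its difference of -0.26 (SE 0.09, adjusted p = 0.0961) did not pass. Chrne lay below the median gene, and with each array centred on its median the difference was -0.16. The sh-PIP4K2B arrays were above all shX arrays for 6 genes and below them for 1, Chrne, but non-overlapping arrays were common in this comparison, with 21.8% of all genes higher and 22.7% lower.

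The agrin pathway did not pass in this comparison. Lrp4 averaged 11.69 ± 0.06 in WT-TAF3 sh-PIP4K2B and 11.35 ± 0.08 in WT-TAF3 shX cells (SD, n = 3 each), a difference of 0.35 (SE 0.16, adjusted p = 0.166). Musk differed by 0.25 (SE 0.14, adjusted p = 0.24), Dok7 by -0.11 (SE 0.09), Agrn by -0.05 (SE 0.14) and Rapsn by -0.02 (SE 0.08). The 95% interval of Rapsn ran from -0.18 to 0.15, within 1.4-fold in either direction. Myotube markers moved in the same comparison, with Tnnt3 (0.83) and Mylpf (0.56) of 6 markers past the threshold and a summed level above that of shX on every array. Cd34, a marker of reserve cells, was lower (-0.64, adjusted p = 2.7e-05), and the summed level of its list ran from 12.24 to 12.29 with sh-PIP4K2B and 12.43 to 12.49 with shX. Cd34 was the only 1 of the 6 reserve markers past the threshold, and their median difference was -0.0239, against -0.0241 over all genes. The summed level of the cycling markers ran from 13.19 to 13.26 with sh-PIP4K2B and 12.89 to 13.01 with shX. The part of these markers in the receptor differences was not tested.

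**Figure D2:**
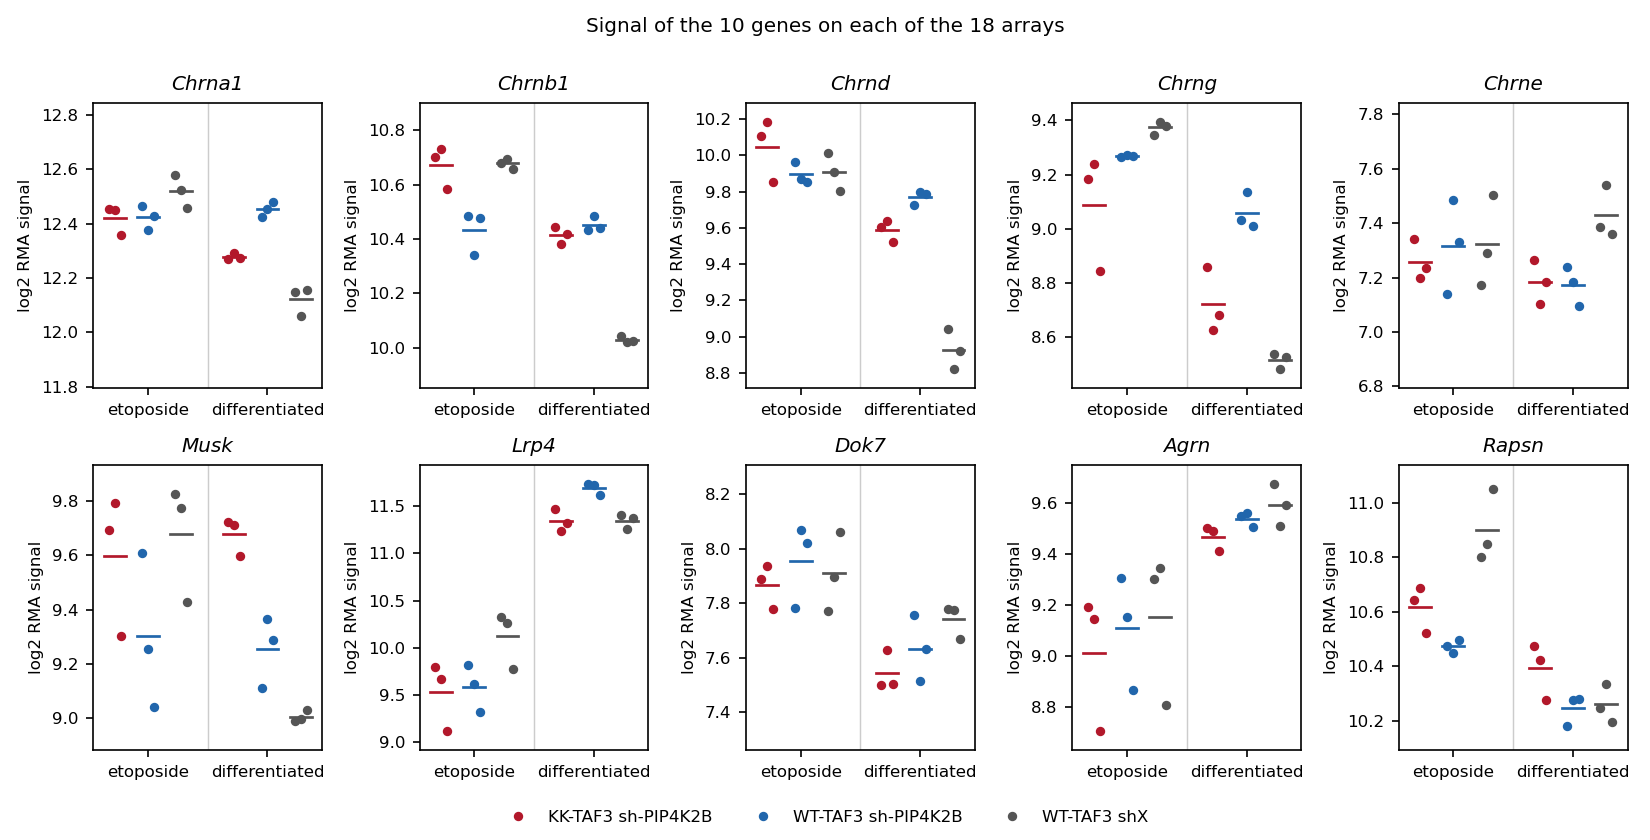
Log2 RMA signal (vertical axes, each spanning at least 1 log2 unit) of the 10 genes on each of 18 arrays, with etoposide to the left of differentiated cells and, within each, KK-TAF3 sh-PIP4K2B (red), WT-TAF3 sh-PIP4K2B (blue) and WT-TAF3 shX (grey). Points are arrays and bars are group means of 3 arrays; in differentiated cells the shX arrays of Chrnd lie between 8.82 and 9.04, below the arrays of the other groups.

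In differentiated sh-PIP4K2B cells the KK mutant was compared with wild-type TAF3, to ask how the loss of phosphoinositide binding bears on the same genes. None of the 10 passed by limma (0 of 10, against 0.517% of all genes), 0 also at an unadjusted p under 0.05 with the fold limit (0.617% of all genes). The median difference was -0.0808, against 0.0179 over all genes. This comparison shares the WT-TAF3 sh-PIP4K2B arrays with the depletion comparison, with opposite sign. Pip4k2b itself was higher on every KK-TAF3 array than on every WT-TAF3 sh-PIP4K2B array here, and the part of this was not tested.

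Chrng had log2 levels of 8.86, 8.63 and 8.68 in KK-TAF3 cells, against 9.03, 9.14 and 9.01 in WT-TAF3 cells with the same shRNA. All KK-TAF3 arrays were lower, and the difference of -0.34 (SE 0.09, adjusted p = 0.085) had an interval from -0.52 to -0.16. Chrna1 stood at 12.27, 12.29 and 12.27 in KK-TAF3 cells, below the 12.43 to 12.48 of WT-TAF3 sh-PIP4K2B, a difference of -0.18 (SE 0.06, adjusted p = 0.307). Chrnd read 9.61, 9.64 and 9.52 in KK-TAF3 cells, against 9.73, 9.80 and 9.79 in WT-TAF3 sh-PIP4K2B cells (-0.18, SE 0.08, adjusted p = 0.672). Chrnb1, at 10.44, 10.38 and 10.42 in KK-TAF3 cells, overlapped with WT-TAF3 sh-PIP4K2B (-0.04, interval -0.17 to 0.09).

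Musk stood at 9.72, 9.71 and 9.60 in KK-TAF3 cells, against 9.11, 9.37 and 9.29 in WT-TAF3 sh-PIP4K2B cells. It was the only one of the 10 with every KK-TAF3 array above every WT-TAF3 sh-PIP4K2B array, but its difference of 0.42 (SE 0.14, adjusted p = 0.256) did not pass. Lrp4 read 11.47, 11.24 and 11.32 in KK-TAF3 cells, against 11.73, 11.72 and 11.62 in WT-TAF3 sh-PIP4K2B cells (-0.35, SE 0.16, adjusted p = 0.651). Arrays did not overlap for 6 of the 10 genes, 1 higher and 5 lower, against 12.9% higher and 8.07% lower among all genes. Dok7, Rapsn and Chrne overlapped, with differences of -0.09 (SE 0.09), 0.15 (SE 0.08) and 0.01 (SE 0.09). Agrn was 9.50, 9.49 and 9.41 in KK-TAF3 cells, just below 9.55, 9.56 and 9.51 in WT-TAF3 sh-PIP4K2B cells. Markers of myotubes fell in this comparison, 4 of 6 past the threshold, among them Mymk, the fusion protein myomaker, at -1.57 (SE 0.11). Cd34, the only 1 of 6 reserve cell markers past the threshold, was lower too (-0.52, adjusted p = 4.39e-04). The median of the reserve list was -0.0672, against 0.0179 over all genes. The part of these markers was not tested.

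KK-TAF3 sh-PIP4K2B cells were also set against WT-TAF3 shX cells, a pair that differs in both the mutant and the depletion. Chrnd and Musk were past the threshold (2 of 10, against 1.26% of all genes), both higher (0.823% of all genes). Chrnd differed by 0.66 (SE 0.08, adjusted p = 1.14e-04) and Musk by 0.67 (SE 0.14, adjusted p = 0.00752), with Musk at 9.72, 9.71 and 9.60 in KK-TAF3 and between 8.99 and 9.03 in shX cells. The Musk call was lost with the array median as a covariate (0.38, adjusted p = 0.094). Chrnb1 differed by 0.38 (SE 0.06, adjusted p = 0.00111), below 1.4-fold. Chrng, past the threshold in WT-TAF3 cells with depletion, stood at 0.21 (SE 0.09, adjusted p = 0.127) here.

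The order of the 3 differentiated genotypes thus varied among the genes. Chrnd, Chrng and Chrna1 were highest in WT-TAF3 sh-PIP4K2B, then KK-TAF3, then shX, and neighbouring groups did not overlap for any of the 3. Chrnb1 was as high in KK-TAF3 as in WT-TAF3 sh-PIP4K2B within overlapping arrays, with shX below both. Musk was highest in KK-TAF3, then WT-TAF3 sh-PIP4K2B, then shX, without overlap. Lrp4 was highest in WT-TAF3 sh-PIP4K2B, while KK-TAF3 and shX overlapped at means of 11.34 and 11.35.

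After etoposide none of the 10 genes passed the threshold in the comparison for PIP4K2B depletion by limma (0 of 10, against 0.868% of all genes), and 1 passed at an unadjusted p under 0.05 with the fold limit (0.943% of all genes). At the adjusted p alone 2 were lower, against 2.11% of all genes. Rapsn, the receptor scaffold, was at 10.48, 10.45 and 10.50 in WT-TAF3 sh-PIP4K2B cells, against 10.80, 10.85 and 11.05 in WT-TAF3 shX cells. The groups were apart, and the difference of -0.43 (SE 0.08, adjusted p = 0.00314) was below 1.4-fold. Chrnb1 read 10.49, 10.34 and 10.48 with sh-PIP4K2B, against 10.68, 10.69 and 10.66 with shX (-0.24, SE 0.06, adjusted p = 0.0339).

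Lrp4 had the widest gap of the 10, at 9.81, 9.62 and 9.32 in WT-TAF3 sh-PIP4K2B cells and 10.33, 10.26 and 9.77 in WT-TAF3 shX cells, with an overlap through the shX array numbered 3. Its difference of -0.54 (SE 0.16, adjusted p = 0.0814) did not pass. Same-numbered etoposide arrays of these groups deviated together, and with the replicate number as a block Lrp4 did pass (-0.54, SE 0.12, adjusted p = 0.0171). It also passed without the arrays numbered 3 (-0.58, adjusted p = 0.0048), a setting added after seeing the data, and without the shX array numbered 3 alone (-0.71, adjusted p = 0.0205). Without the WT-TAF3 sh-PIP4K2B array numbered 1, Lrp4 (-0.65, adjusted p = 0.0251) and Musk (-0.53, adjusted p = 0.0205) passed. Without the KK-TAF3 array numbered 3, which enters through the pooled spread, Lrp4 did (-0.54, adjusted p = 0.028). Lrp4 did not pass in any other fit that left out a single array. Nor did it with only the etoposide arrays, only brighter genes, centring, quantile normalization within each treatment or the array median as a covariate. Musk read 9.61, 9.25 and 9.04 with sh-PIP4K2B and 9.82, 9.77 and 9.43 with shX, overlapping (-0.37, SE 0.14, adjusted p = 0.174). Chrnd did not differ beyond its spread, at 9.90 ± 0.06 with sh-PIP4K2B and 9.91 ± 0.10 with shX (SD, n = 3 each), with an interval from -0.19 to 0.17.

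In etoposide-treated sh-PIP4K2B cells KK-TAF3 against WT-TAF3 gave 0 of 10 genes past the threshold by limma (0.406% of all genes), 0 also at an unadjusted p under 0.05 with the fold limit (0.532%). The smallest adjusted p was that of Chrnb1 (0.24, SE 0.06, adjusted p = 0.0864), at 10.70, 10.73 and 10.58 in KK-TAF3 and 10.49, 10.34 and 10.48 in WT-TAF3 cells. Musk differed by 0.29 (SE 0.14, adjusted p = 0.316). Chrnd stood at 10.11, 10.18 and 9.85 in KK-TAF3 cells and overlapped with the 9.96, 9.87 and 9.85 of WT-TAF3 sh-PIP4K2B cells. Against shX, none of the 10 passed in KK-TAF3 sh-PIP4K2B cells after etoposide (0 of 10 by limma, 1.15% of all genes), and 1 did so before adjustment with the fold limit kept (1.26%). That gene was Lrp4, at 9.80, 9.67 and 9.12 in KK-TAF3 and 10.33, 10.26 and 9.77 in shX cells (-0.59, SE 0.16, adjusted p = 0.0505), and it passed with the replicate block (adjusted p = 0.00833).

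**Figure D3:**
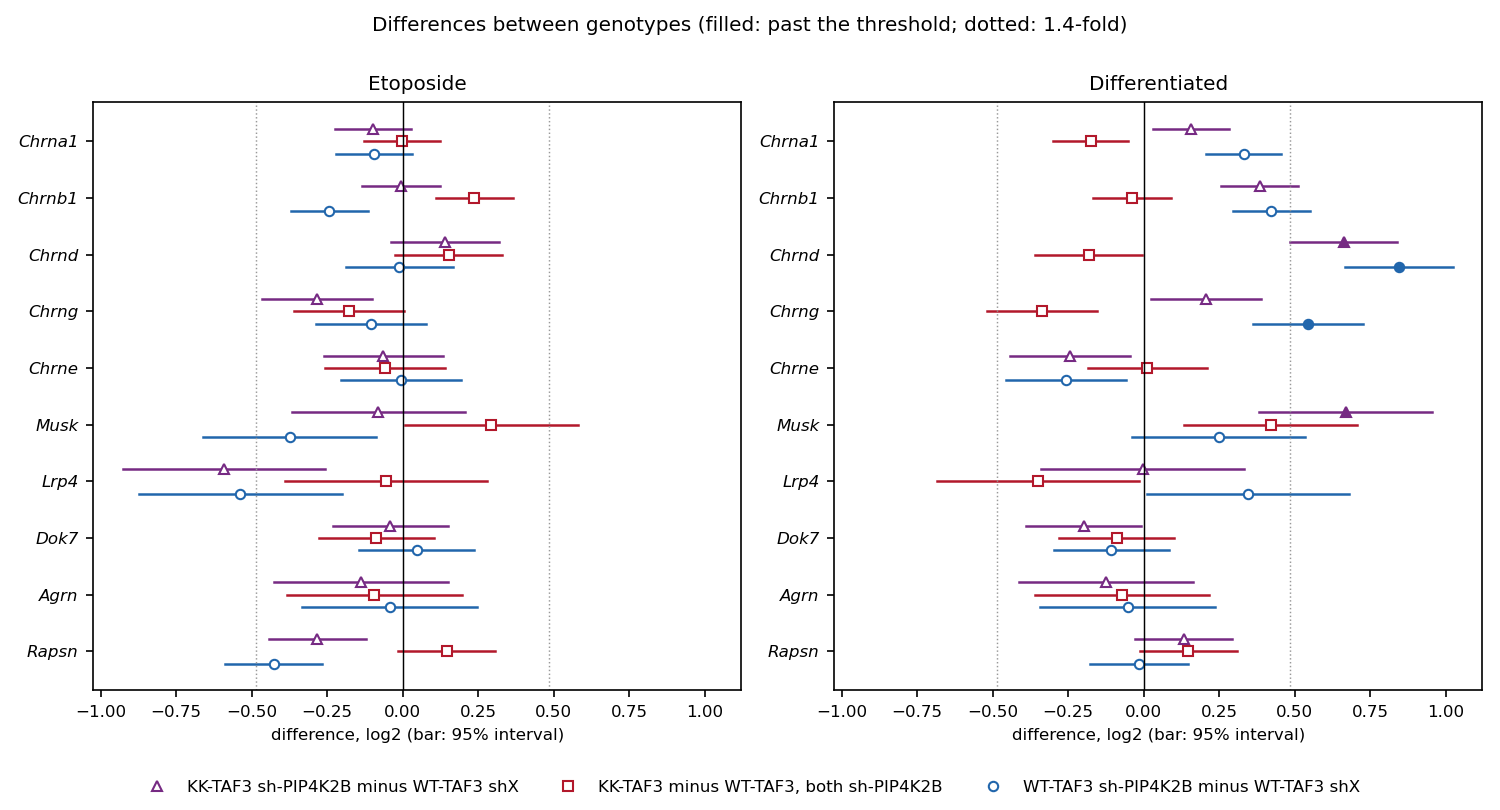
Differences between genotypes on the log2 scale (horizontal axis) with 95% intervals for the 10 genes, in etoposide-treated (left) and differentiated cells (right). Filled symbols are past the threshold and dotted lines mark 1.4-fold; Chrnd at 0.84 and 0.66, Chrng at 0.54 and Musk at 0.67 are filled, all in differentiated cells.

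Etoposide was set against differentiation in each genotype. In WT-TAF3 shX cells 6 of the 10 genes were past the threshold, 5 higher and 1 lower, against 7.63% of all genes (4.71% higher, 2.92% lower). The median over the 10 genes was 0.52, against -0.0521 over all genes. Chrnd read 10.01, 9.91 and 9.80 after etoposide, against 9.04, 8.82 and 8.92 after differentiation, a difference of 0.98 (SE 0.08, adjusted p = 8.25e-08) or 1.97-fold. Chrng read 9.35, 9.39 and 9.38 after etoposide, against 8.54, 8.48 and 8.53 after differentiation (0.86, SE 0.09, adjusted p = 5.99e-07). Musk (0.67, SE 0.14), Chrnb1 (0.65, SE 0.06) and Rapsn (0.64, SE 0.08) were higher too. Chrna1 was higher by 0.40 (SE 0.06, adjusted p = 5.69e-05), below the fold limit, at 12.58, 12.52 and 12.46 after etoposide and 12.15, 12.06 and 12.16 after differentiation.

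Lrp4 was lower after etoposide than after differentiation in all 3 genotypes, with no overlap. The difference was -1.82 (SE 0.16, adjusted p = 9.57e-08) in KK-TAF3, -2.11 (SE 0.16, adjusted p = 1.18e-08) in WT-TAF3 sh-PIP4K2B and -1.23 (SE 0.16, adjusted p = 1.17e-05) in WT-TAF3 shX cells, or 3.52-fold, 4.32-fold and 2.34-fold lower. In WT-TAF3 sh-PIP4K2B cells the level was 9.81, 9.62 and 9.32 after etoposide, against 11.73, 11.72 and 11.62 after differentiation. Lrp4 was the only one of the 10 past the threshold in either sh-PIP4K2B genotype, 1 of 10 in KK-TAF3 against 8.33% of all genes and 1 of 10 in WT-TAF3 against 9.95%.

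Agrn was lower after etoposide by a like amount in each genotype, -0.45 (SE 0.14, adjusted p = 0.0206) in KK-TAF3, -0.43 (SE 0.14, adjusted p = 0.0217) in WT-TAF3 sh-PIP4K2B and -0.44 (SE 0.14, adjusted p = 0.0257) in WT-TAF3 shX cells, below 1.4-fold. Its etoposide arrays spread widely, at 9.19, 9.14 and 8.71 in KK-TAF3 cells, 9.31, 9.15 and 8.87 in WT-TAF3 sh-PIP4K2B cells and 9.30, 9.35 and 8.81 in WT-TAF3 shX cells. Dok7 was higher after etoposide by 0.32 (SE 0.09, adjusted p = 0.0124) in KK-TAF3 and 0.32 (SE 0.09, adjusted p = 0.0104) in WT-TAF3 sh-PIP4K2B cells, below the fold limit, and differed by 0.17 (SE 0.09, adjusted p = 0.199) in WT-TAF3 shX cells. Chrne did not pass in any genotype, with differences of 0.07, 0.15 and -0.11 (SE 0.09 each) in KK-TAF3, WT-TAF3 sh-PIP4K2B and WT-TAF3 shX cells.

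In KK-TAF3 cells the subunits Chrnd (0.46, SE 0.08, adjusted p = 4.82e-04), Chrng (0.37, SE 0.09, adjusted p = 0.00385) and Chrnb1 (0.26, SE 0.06, adjusted p = 0.00393) were higher after etoposide at the adjusted p and below 1.4-fold. Without the KK-TAF3 etoposide array numbered 3, on which Chrng read 8.84 beside 9.19 and 9.24, Chrnd (0.56) and Chrng (0.49) passed the fold limit too. In WT-TAF3 sh-PIP4K2B cells the same subunits did not pass, with Chrnd at 0.12 (SE 0.08, adjusted p = 0.263), Chrng at 0.21 (SE 0.09, adjusted p = 0.0697) and Chrnb1 at -0.02 (SE 0.06, adjusted p = 0.836). Of the 6 myotube markers, 2 in KK-TAF3, 5 in WT-TAF3 sh-PIP4K2B and 4 in WT-TAF3 shX cells were lower after etoposide past the threshold, and the summed level was lower on every array in each genotype. Their part in the receptor differences was not tested.

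**Figure D4:**
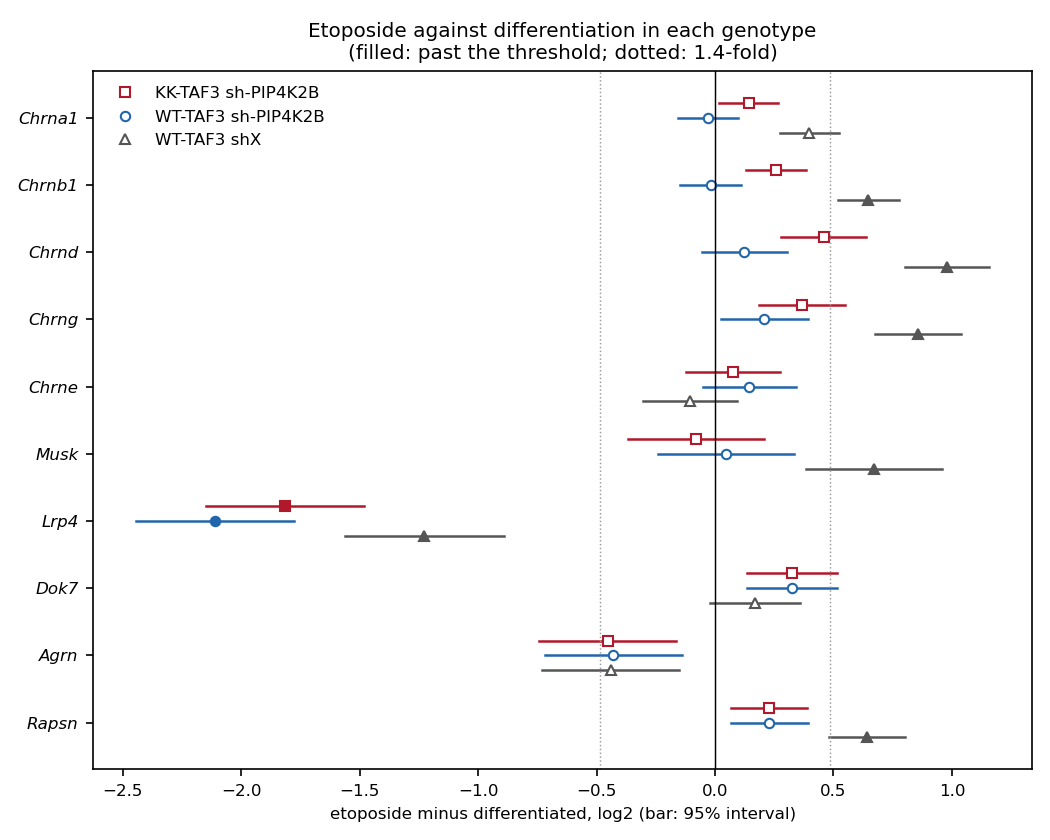
Etoposide minus differentiation for the 10 genes on the log2 scale (horizontal axis) with 95% intervals, in KK-TAF3 sh-PIP4K2B (red squares), WT-TAF3 sh-PIP4K2B (blue circles) and WT-TAF3 shX cells (grey triangles). Filled symbols are past the threshold; Lrp4 is filled in all 3 genotypes, and Chrnb1, Chrnd, Chrng, Musk and Rapsn are filled in shX cells.

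The effect of PIP4K2B depletion after etoposide was tested against its effect after differentiation. The difference of the effects was past the threshold for 4 of the 10 genes, all lower after etoposide, against 4.02% of all genes (2.07% lower), and the median of the 10 was -0.525 against 0.0405 over all genes. Chrnd differed by -0.86 (SE 0.12, adjusted p = 8.35e-04), with a depletion effect of -0.01 after etoposide and 0.84 after differentiation. For Lrp4 the depletion effects were -0.54 and 0.35, and they differed by -0.88 (SE 0.22, adjusted p = 0.0334). Chrnb1 (-0.67, SE 0.09, adjusted p = 3.48e-04) and Chrng (-0.65, SE 0.12, adjusted p = 0.00838) completed the 4. Chrna1 (-0.43, adjusted p = 0.0107) and Rapsn (-0.41, adjusted p = 0.0366) passed the adjusted p below 1.4-fold, and Musk (-0.62, SE 0.19, adjusted p = 0.0558) did not pass. In these cells the 4 groups were at Chrnd means of 9.90 and 9.91 after etoposide and 9.77 and 8.93 after differentiation, with sh-PIP4K2B before shX, so the differentiated shX arrays stood apart from the rest. The Lrp4 call was lost in 8 of 18 fits that left out a single array, at adjusted p of 0.0552 to 0.0896. Those arrays were numbers 2 and 3 of WT-TAF3 sh-PIP4K2B and 1 and 2 of WT-TAF3 shX cells, in each treatment. Centring each array on its median moved the median of all genes by -0.142 in this comparison and left the sign of these 4 genes as it was. The corresponding test for KK-TAF3 against WT-TAF3 gave 0 of 10 by limma (0.150% of all genes), 0 also at an unadjusted p under 0.05 with the fold limit (0.717%).

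Over the 9 differentiated arrays the genes whose signal followed Chrnd most closely, of 421 genes whose group means spanned more than 1.4-fold, were Frmpd1 (Pearson r = 0.99), Adgrg3 (0.99), Actn3, the fast fibre alpha-actinin (0.98), Cd200 (0.98) and Pappa (0.97). For Chrng they were Mylpf, a fast myosin light chain (0.97), Ythdc2 (0.97), Synpo2 (0.96), Pdlim3, a Z-disc protein (0.96), and Adgrg1 (0.96). Chrnd and Chrng correlated at 0.859 with each other, and Chrnd with Chrnb1 at 0.976 and Chrna1 at 0.931. Chrng followed Lrp4 at 0.909 and Musk at only 0.245. These values are descriptions over 3 groups of 3 arrays that share their treatment, and they mostly repeat the group means given above.

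Of 102 other synapse genes, 96 were measured. None passed for PIP4K2B depletion in differentiated cells by limma (0 of 96, against 1.06% of all genes), 0 also at an unadjusted p under 0.05 with the fold limit. After etoposide 1 of 96 was higher (0.868% of all genes past the threshold), the ETS factor Etv4 at 0.50 (SE 0.09, adjusted p = 0.00361). Etv4 fell short of 1.4-fold without the WT-TAF3 sh-PIP4K2B etoposide array numbered 2 (0.45, adjusted p = 0.0242) and with each array centred on its median (0.46, adjusted p = 0.0246), and missed the adjusted p with only the 9 etoposide arrays (adjusted p = 0.0542). Without the differentiated WT-TAF3 sh-PIP4K2B array numbered 1, Sntb1 passed for depletion (0.51, adjusted p = 0.00289). KK-TAF3 cells differed from WT-TAF3 sh-PIP4K2B cells in 2 of 96 after differentiation (0.517% of all genes) and in 1 of 96 after etoposide (0.406%). Sntb1, beta-1 syntrophin of the dystrophin complex, was higher in both treatments, by 0.83 (SE 0.08, adjusted p = 1.25e-05) after etoposide and 0.62 (SE 0.08, adjusted p = 1.44e-04) after differentiation. Its log2 level averaged 10.27 ± 0.09 in KK-TAF3, 9.65 ± 0.12 in WT-TAF3 sh-PIP4K2B and 9.21 ± 0.06 in WT-TAF3 shX cells after differentiation (SD, n = 3 each).

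Myog, myogenin, the myogenic factor that binds E-boxes of the receptor genes, was lower in differentiated KK-TAF3 cells by 1.02 on the log2 scale (change -1.02, SE 0.09, adjusted p = 2.19e-06), with means of 6.93 ± 0.10 in KK-TAF3 and 7.95 ± 0.13 in WT-TAF3 sh-PIP4K2B cells (SD, n = 3 each). The KK-TAF3 mean lay below the array medians of 7.25 to 7.46. In the same arrays Chrnd, Chrng and Chrna1 were lower but did not pass, with the differences given above. Chrnb1 overlapped and Musk was higher there, also without passing. Set against differentiated shX cells, Myog was lower (-0.77) in KK-TAF3 cells. The 2 of the 10 genes past the threshold there, Chrnd (0.66) and Musk (0.67), were higher. A link between Myog and these genes was not tested. Of 11 neuronal acetylcholine receptor subunits, which form receptors of nerve cells, none passed for depletion or for KK-TAF3 against WT-TAF3 in either treatment by limma. Chrna9 in differentiated cells had the smallest adjusted p (-0.32, adjusted p = 0.0453, below the fold limit, for depletion). Its means of 7.09 with sh-PIP4K2B and 7.41 with shX lay below or within the range of the array medians. The median difference of the 11 was -0.143 there, against -0.0241 over all genes. The 16 genes of the synaptic esterase and matrix, 22 of MuSK signalling and clustering, 9 of channels and adhesion and 5 of glycosylation held none past the threshold in those 4 comparisons. The mutant with depletion, set against shX cells, gave 3 of 96 after etoposide (1.15% of all genes), Sntb1 (0.61) higher and Sgcd, a sarcoglycan (-0.82), and Sorbs2 of the MuSK signalling list (-0.49, adjusted p = 0.0059) lower. After differentiation it gave 3 of 96 (1.26%), Sntb1 (1.06) higher and Sgcd (-0.52) and Myog (-0.77) lower, and Chrna9 stood at -0.40 (adjusted p = 0.015), below the fold limit. Etoposide against differentiation gave 17 of 96 in KK-TAF3 (17.7%, against 8.33% of all genes), 20 of 96 in WT-TAF3 sh-PIP4K2B (20.8%, against 9.95%) and 15 of 96 in WT-TAF3 shX cells (15.6%, against 7.63%).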

How the data were processed

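The deposited values are log2 signals that the authors made with RMA in Affymetrix Expression Console, per the labels (version not given in the sources used here). Background correction, quantile normalization and probe summary were therefore done before deposit, and a difference shared by most genes of an array is reduced by it. Of 35556 rows, 21789 had 1 gene symbol, 1621 several and 12146 were not in the annotation used here. That annotation lists an earlier chip generation than the one the study's methods name, so gene names rest on it. The brightest row of each gene gave 19938 genes, 999 of them with more than 1 row. The files give no detection call, and the number of arrays limits the precision.

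All 18 arrays entered 1 limma 3.58.1 model of 6 group means in R 4.3.3 (12 residual and 6.05 prior degrees of freedom). The study gives a limit on p and 1.4-fold without naming test or adjustment. The fit was tested on simulated data. The members and lists were chosen with earlier results of these data known. Named genes were the 10 members, up to 4 genes past the threshold in each other list, the targeted genes, markers, and the 5 genes most like each differentiated-cell call by Pearson r. Chrna9, Sgcd and Sorbs2 were named after their values were seen. Of the listed genes, 9 were not analysed here.

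Same-numbered arrays were checked for pairing by correlating deviations from group means. This held only between the etoposide arrays of WT-TAF3 sh-PIP4K2B and WT-TAF3 shX cells (r of 0.435, 0.332 and 0.559) and, at the limit of 0.1 set for this, those of KK-TAF3 sh-PIP4K2B and WT-TAF3 shX cells (0.169, 0.1 and 0.593). The pairing comes from the data and not from the labels. The blocked value is given there for Lrp4 only, and the other genes are reported from the fit without the block. The alternatives tried dropped the adjustment or the fold limit, or used other fits, filters and normalizations, a replicate block, each array left out and, added after seeing the data, the etoposide arrays numbered 1 and 2 only. Promoters were read from RefSeq (GRCm38.p6) with Python 3.11.15, pandas 2.3.3 and numpy 2.4.6.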

Additional observations from a re-analysis of the deposited data

Results flagged for a closer look

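The effect of PIP4K2B depletion in WT-TAF3 cells differed between etoposide and differentiation, by the interaction term of the limma fit, for 4 of the 10 genes. The difference of the effects was -0.86 for Chrnd (SE 0.12, adjusted p = 8.35e-04) and -0.67 for Chrnb1 (SE 0.09, adjusted p = 3.48e-04). It was -0.65 for Chrng (SE 0.12, adjusted p = 0.00838) and -0.88 for Lrp4 (SE 0.22, adjusted p = 0.0334). With the array median as a covariate Chrng (-0.55, adjusted p = 0.149) and Lrp4 (-0.53, adjusted p = 0.536) did not pass. That setting called 0.481% of all genes, against 4.02% in the main fit. Lrp4 was also lost with every row of the table (adjusted p = 0.0794), with quantile normalization within each treatment (-0.75, adjusted p = 0.0612) and in 8 of 18 fits that left out a single array (adjusted p from 0.0552 to 0.0896). For Chrnd, Chrnb1 and Chrng the differentiated WT-TAF3 shX arrays were the low group, at Chrnd 8.82 to 9.04 beside 9.52 or more on every other array. Lrp4 differed in another way, with sh-PIP4K2B below shX after etoposide and above it after differentiation.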

How the results depend on the processing

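Of the members' calls, Chrnd was kept for depletion in all 11 alternatives, and no call changed sign. A percent in brackets below is the share of all genes called in that setting. The 2 genes past the threshold for depletion in differentiated cells became 4 with no fold limit (6.14%). They became 1 with quantile normalization within each treatment (1.12%) and 1 with the array median as a covariate (0.722%). With each array centred on its median, where 1.75% of all genes passed, Chrnb1 passed as well (0.52, adjusted p = 8e-04). The 2 between KK-TAF3 sh-PIP4K2B and WT-TAF3 shX cells became 1 with the array median as a covariate (0.848%). After etoposide the 0 for depletion became 1 at an unadjusted p (0.943%) and 2 with no fold limit (3.15%). It became 1 with the replicate block (0.888%) and 1 with arrays numbered 1 and 2 only (0.858%). The 0 of the mutant with depletion against shX became 1, Lrp4, at an unadjusted p, with trend and robust and above the median signal. It was also 1, Lrp4, with quantile normalization, the covariate, the replicate block and arrays 1 and 2 only. In these settings 1.08% to 1.94% of all genes were called. Etoposide against differentiation gave 1 in WT-TAF3 sh-PIP4K2B cells, 4 with no fold limit (34.7%) and 2 with centring on the median (11.7%). In KK-TAF3 cells it gave 1, 7 with no fold limit (25.4%) and 2 with centring (8.59%). It also gave 2 there with quantile normalization (8.2%), 2 with the covariate (6.97%) and 3 with arrays 1 and 2 only (7.45%). The 4 whose depletion effects differed (4.02%) became 7 with centring (6.8%). Over all genes centring called 66 higher and 1290 lower, against 388 and 413 in the main fit. With the covariate the 4 became 2 (0.481%), where Chrng (-0.55, adjusted p = 0.149) and Lrp4 (-0.53, adjusted p = 0.536) did not pass. Lrp4 was also lost with every row of the table (adjusted p = 0.0794) and with quantile normalization (-0.75, adjusted p = 0.0612). Those settings called 1.06% and 2.18% of all genes. The cause was not tested. Of the 96 other synapse genes, the 0 for depletion in differentiated cells became 8 with no fold limit (6.14%). They became 2 with centring (1.75%) and 1 with the covariate (0.722%). The 2 for KK-TAF3 became 1 above the median signal (0.572%), where fewer genes were tested. The 1 for depletion after etoposide became 5 with no fold limit (3.15%), 0 with only the 9 arrays of the treatment (0.587%) and 2 with the covariate (0.888%).

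Leaving out each array gave 0 to 2 for depletion and 0 to 1 for KK-TAF3 against shX after etoposide. Etoposide against differentiation gave 1 to 3 in KK-TAF3, 1 to 2 in WT-TAF3 sh-PIP4K2B and 6 to 7 in WT-TAF3 shX cells. The genes whose depletion effects differed numbered 3 to 5, and the other synapse genes 0 to 1 for depletion in differentiated and 0 to 3 in etoposide-treated cells. Same-numbered arrays correlated at -0.418 to 0.593, over 0.1 in 8 of 27 pairs, so outside the etoposide arrays the numbers only name arrays; the replicate block changed no other call than Lrp4 after etoposide and Musk, whose depletion effects then differed (-0.62, adjusted p = 0.045). Chrne and Dok7 lie below the median gene and drop out when only brighter genes are tested. SEs of the members ran from 0.06 to 0.16 between single groups.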
